A study of Mus musculus with 4 samples.

Results

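Genes of fatty acid metabolism were examined for RBPJ peaks in alveolar macrophages (AMs). The 5 synthesis genes were Acaca, Acly, Fasn, Scd1 and Scd2, and the 5 oxidation genes were Cpt1a, Cpt2, Acadl, Acadm and Hadha. They were taken by GENCODE symbol, and together they make 10 of the 21755 protein-coding genes on the autosomes and chromosome X. The cells were AMs of WT C57BL/6J mice aged 9 weeks, collected by bronchoalveolar lavage and sorted into aliquots of 200000 cells. HT-ChIPmentation, a chromatin immunoprecipitation in which the library is made by a transposase on the beads, was run on 2 RBPJ libraries (replicates 1 and 2) with 2 input libraries. No group carried a transgene, a deletion or a treatment. The labels do not say that the libraries came from separate animals.

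RBPJ is the DNA-binding factor on which the cleaved intracellular part of Notch receptors assembles to activate genes, and without Notch it can hold co-repressors. AMs take up and degrade surfactant lipid in the airspace. Cells make fatty acids in the cytosol, where Acly cuts citrate into acetyl-CoA, Acaca carboxylates acetyl-CoA to malonyl-CoA, Fasn builds the chain, and the desaturases Scd1 and Scd2 place a double bond in it. Cells burn fatty acids in mitochondria, where Cpt1a and Cpt2 pass long chains across the membranes as carnitine esters. There Acadl and Acadm remove the first hydrogens from long and medium chains, and Hadha, one subunit of the trifunctional protein, carries on the cycle. Malonyl-CoA inhibits Cpt1a, so the routes are normally opposed.

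A peak is an interval that the peak caller found above input in 1 library, and its fold is the enrichment at the summit over the background estimated from input. A consensus region is a merged interval with at least 1 peak of each library. A region was at a promoter when it overlapped the 1 kb either side of a transcription start site (TSS) of a basic GENCODE transcript. A region was assigned to a gene if it was at its promoter, in its body, or had the gene's TSS as the nearest protein-coding one. Replicate 1 held 106228 peaks and replicate 2 held 47224, and they shared 25454 consensus regions. AM marker genes had a promoter consensus region in 8 of 10 cases, including Siglecf, Chil3 and Pparg. None of the 5 T and B cell markers or the 5 markers of type II epithelial cells had one, against Pecam1 among 5 endothelial and S100a8 among 5 neutrophil markers. By the same rule the share of all protein-coding genes was 33.7%. No read depth came with the lists. With 2 libraries and 1 condition, all values here are descriptions without a test, and genes were not treated as replicates.

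RBPJ was found at the promoters of 4 of the 5 oxidation genes and 1 of the 5 synthesis genes in both libraries. The bound oxidation genes were Cpt1a, Cpt2, Acadm and Hadha, and the bound synthesis gene was Acly. Among all protein-coding genes, 33.7% had a consensus region at a promoter. The contrast was smaller when summits of the libraries had to lie within 100 bp. By that rule 2 oxidation genes (Cpt2 and Hadha) and 1 synthesis gene (Acly) were left, and the share of all genes was not counted. The promoter sequences of the 5 bound genes are shown because the regions that recurred lie on or beside their start sites, and that of Fasn as a synthesis gene without a consensus region. The Fasn window holds no peak of either list, since the peaks of replicate 1 lie downstream of it, near another annotated TSS. Each is the RefSeq window (GRCm38.p6) of 250 bases before and 50 after the start, written 5′ to 3′ on the gene's strand. Capitals mark matches to any of the 11 motifs that are listed after the sequences.
Acly (chr11:100527951-100528250, minus strand): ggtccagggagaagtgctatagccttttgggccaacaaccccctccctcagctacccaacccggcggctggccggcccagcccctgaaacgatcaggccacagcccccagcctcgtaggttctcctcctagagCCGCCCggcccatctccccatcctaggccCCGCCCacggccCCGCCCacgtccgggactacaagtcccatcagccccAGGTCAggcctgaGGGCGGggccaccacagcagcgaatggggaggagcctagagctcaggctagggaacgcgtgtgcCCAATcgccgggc
Cpt1a (chr19:3323051-3323350, plus strand): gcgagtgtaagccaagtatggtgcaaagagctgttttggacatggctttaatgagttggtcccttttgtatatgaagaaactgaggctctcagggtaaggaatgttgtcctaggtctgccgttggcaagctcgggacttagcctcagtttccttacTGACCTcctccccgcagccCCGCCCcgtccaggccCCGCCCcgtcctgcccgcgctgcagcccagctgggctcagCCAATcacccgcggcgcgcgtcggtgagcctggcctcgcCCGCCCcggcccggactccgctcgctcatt
Cpt2 (chr4:107923540-107923839, minus strand): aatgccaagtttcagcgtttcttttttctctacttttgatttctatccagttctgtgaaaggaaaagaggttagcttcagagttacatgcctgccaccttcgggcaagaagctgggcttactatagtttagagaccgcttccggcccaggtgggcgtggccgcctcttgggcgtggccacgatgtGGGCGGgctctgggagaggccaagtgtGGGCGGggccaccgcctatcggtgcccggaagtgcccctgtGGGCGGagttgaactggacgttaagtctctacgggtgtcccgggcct
Acadm (chr3:153944594-153944893, minus strand): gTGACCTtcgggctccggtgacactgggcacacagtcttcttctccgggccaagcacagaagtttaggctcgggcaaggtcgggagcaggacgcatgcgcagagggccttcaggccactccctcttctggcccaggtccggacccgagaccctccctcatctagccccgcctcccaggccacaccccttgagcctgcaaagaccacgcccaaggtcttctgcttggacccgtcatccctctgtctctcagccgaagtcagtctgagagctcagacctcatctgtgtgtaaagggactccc
Hadha (chr5:30154931-30155230, minus strand): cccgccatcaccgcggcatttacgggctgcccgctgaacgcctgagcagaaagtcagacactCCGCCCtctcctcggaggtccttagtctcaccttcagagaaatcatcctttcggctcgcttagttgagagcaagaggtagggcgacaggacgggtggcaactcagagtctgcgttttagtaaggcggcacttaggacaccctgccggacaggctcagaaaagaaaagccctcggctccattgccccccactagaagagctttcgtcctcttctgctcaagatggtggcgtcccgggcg
Fasn (chr11:120824498-120824797, minus strand): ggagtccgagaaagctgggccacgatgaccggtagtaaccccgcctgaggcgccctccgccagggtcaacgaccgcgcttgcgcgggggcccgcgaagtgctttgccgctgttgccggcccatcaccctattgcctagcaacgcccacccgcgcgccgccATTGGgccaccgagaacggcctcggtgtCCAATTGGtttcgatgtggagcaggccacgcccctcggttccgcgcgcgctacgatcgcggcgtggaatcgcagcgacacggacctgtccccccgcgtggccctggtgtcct

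The motifs searched on both strands were TGGGAA (the RBPJ core) and the longer GTGGGAA that contains it, CACGTG (E box), TCACNCCAC (sterol response element), AGGTCA (nuclear receptor half-site), TTGCNNAA (C/EBP), GAGGAAGT (PU.1), TGANTCA (AP-1), CCAAT (NF-Y), GGGCGG (GC box) and TGACGTCA (cAMP response element). RefSeq windows were matched for 8 of the 10 genes, all but Scd1 and Scd2. None of the 6 windows printed above held TGGGAA, which 25.6% of all 32851 RefSeq promoter windows hold. The one window of the 8 with TGGGAA was that of Acaca, at base 242. GC boxes stood in the windows of Acly, Cpt1a, Cpt2, Acadl and Hadha, against 35.7% of all windows. In Acly they began at bases 134, 163, 175 and 224, counted from the 5′ end. In Cpt2 they began at bases 186, 213 and 254. CCAAT boxes were found in Acly, Fasn and Cpt1a, against 37.4% of all windows, and in Fasn 3 matches began at bases 161, 189 and 192, those at 189 and 192 overlapping on opposite strands. The half-site AGGTCA stood in the windows of Acly, Cpt1a and Acadm, against 16.3% of all windows. These matches describe the letters of the windows and do not mark bound sites.

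**Figure D1:**
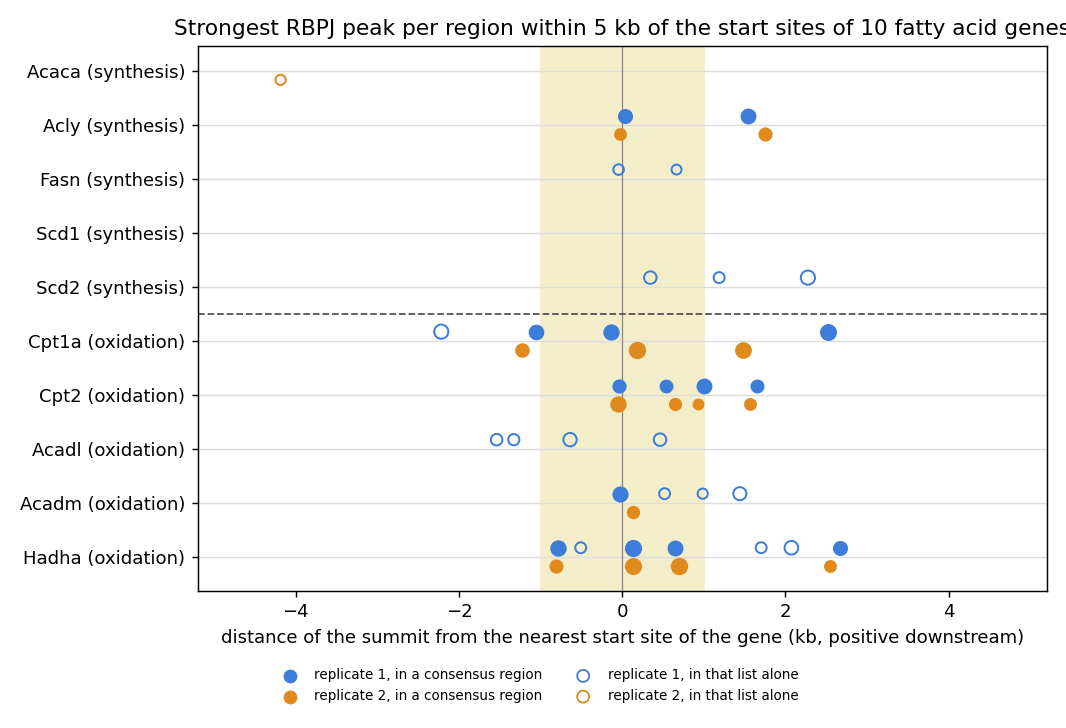
Summits of RBPJ peaks (points, area proportional to fold) by distance in kb from the nearest start site of each gene, with positive values downstream. Filled points belong to consensus regions and open points to 1 list alone, each region is drawn with its strongest peak per library, and the shaded band is 1 kb either side. Filled points lie in the band for Acly, Cpt1a, Cpt2, Acadm and Hadha, while Fasn, Scd2 and Acadl have open points of replicate 1 there and Acaca and Scd1 have none.

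Of the synthesis genes, Acly was the only one with a promoter consensus region. The gene lies on the minus strand at chr11:100476353-100528000. The promoter region (chr11:100527862-100528120) covered 170 of the 300 bases of the printed window. Its fold was 5.84 in replicate 1 and 4.02 in replicate 2, with −log10 q of 10.1 and 3.09. The summits lay 29 bp downstream and 32 bp upstream of a TSS, the former in an untranslated part of exon 1. A second consensus region in intron 1 (chr11:100526061-100526399) had the higher fold of the pair in each library, at 6.60 and 5.02, with summits 1540 and 1744 bp downstream. The replicate 1 summit window of this region carried the extended RBPJ motif GTGGGAA, which the window at the replicate 2 summit did not. No other member region had it at the summit of its higher-fold library, and for that reason it is printed here as 201 bases around the replicate 1 summit on the gene's strand (chr11:100526229-100526429). The match begins at base 71 and reads as the reverse complement.
Acly intron 1: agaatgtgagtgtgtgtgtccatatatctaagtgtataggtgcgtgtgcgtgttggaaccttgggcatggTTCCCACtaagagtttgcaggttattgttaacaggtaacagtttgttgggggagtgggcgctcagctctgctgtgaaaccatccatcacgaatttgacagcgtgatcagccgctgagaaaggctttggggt

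Scd1 had a consensus region but none at its promoter. Scd1 lies on the minus strand at chr19:44394455-44407879, and neither list had a peak within 1 kb of its TSS. Its consensus region (chr19:44388458-44389857) lay downstream of the gene, with summits 18453 and 18351 bp from the TSS. The fold was 6.31 in replicate 1 and 3.68 in replicate 2, and the −log10 q was 13.0 and 2.43. Within 100 bp of the summit of the higher-fold library, this was the only member region with the sterol response element TCACNCCAC, the sequence that SREBP factors bind at lipid genes. Across all consensus regions the share was 0.794%. No member region held it within 50 bp of that summit or within 100 bp of the summit of the lower-fold library. The match begins at base 171 of the window (chr19:44389156-44389356), an AP-1 match that overlaps it begins at base 177, and an AGGTCA half-site begins at base 189.
Scd1 downstream: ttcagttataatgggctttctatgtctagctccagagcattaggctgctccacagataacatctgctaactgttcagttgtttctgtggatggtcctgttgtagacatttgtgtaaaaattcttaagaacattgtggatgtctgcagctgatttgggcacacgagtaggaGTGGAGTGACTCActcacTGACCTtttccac

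Acaca, Fasn and Scd2 had peaks of single libraries and no consensus region. Fasn (minus strand, chr11:120805846-120824547) had 2 peaks, both in replicate 1 and both at the promoter. Their folds were 3.81 and 3.38, with summits 44 bp upstream and 666 bp downstream of the nearest TSS. Replicate 2 had no peak assigned to Fasn. Scd2 (plus strand, chr19:44293674-44306864) had 5 peaks in replicate 1 and 1 in replicate 2. At its promoter replicate 1 had folds of 5.33 and 4.05, and its highest fold was 6.85 at a summit 2276 bp downstream in intron 2. The replicate 2 peak had a fold of 4.35 and lay 7960 bp upstream. Every Scd2 peak inside the gene was thus from replicate 1 alone.

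Acaca, the enzyme of the committed step, had the longest body of the 10 genes and no recurrent peak in it. The gene spans 271980 bp on the plus strand (chr11:84129672-84401651), and the closest consensus region lay 209019 bp from a TSS. Each library had 4 peaks in the body, with folds of 3.30 to 4.69, and none of the 8 overlapped or lay within 1 kb of a TSS. The closest pair, in intron 1, was separated by 73 bp (replicate 1 at chr11:84179187-84179298 with fold 3.30, replicate 2 at chr11:84179372-84179694 with fold 4.69). A similar pair downstream of Scd1 was separated by 28 bp, with folds of 3.30 and 4.02. When peaks up to 100 bp apart were counted as shared, an alternative chosen after these values had been seen, Acaca gained a consensus region and the synthesis genes had 5 regions in place of 3.

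Cpt1a, the outer membrane transferase that controls entry of long chains into oxidation, had the most consensus regions of the 10 genes. It lies on the plus strand at chr19:3322334-3385733. Its 7 consensus regions compare with a median of 2 over all genes with at least 1 assigned region, and 9.59% of those genes had as many or more. The Cpt1a body spans 63400 bp, and these counts were not adjusted for gene length. Of the 7 regions, 3 were at the promoter, in that they overlapped the 1 kb either side of the TSS. Only the region over the TSS had its strongest summits within that limit. The region over the TSS (chr19:3322604-3323799) covered the whole printed window and had folds of 6.98 and 8.03, with summits 141 bp upstream and 183 bp downstream. The region upstream of it (chr19:3321396-3322522) had folds of 6.34 and 5.36, with summits 1056 and 1226 bp upstream of the TSS. The region downstream of it, in intron 1 (chr19:3324018-3326092), had folds of 7.61 and 7.36. In this region of 2075 bp the strongest summits lay 2522 bp downstream of the TSS in replicate 1 and 1485 bp in replicate 2, so the libraries did not peak at the same place. Its replicate 1 summit window (chr19:3325707-3325907) held the RBPJ core TGGGAA at base 190. This was the only match in an oxidation gene within 100 bp of the summit of the higher-fold library, and it was absent within 50 bp.
Cpt1a intron 1: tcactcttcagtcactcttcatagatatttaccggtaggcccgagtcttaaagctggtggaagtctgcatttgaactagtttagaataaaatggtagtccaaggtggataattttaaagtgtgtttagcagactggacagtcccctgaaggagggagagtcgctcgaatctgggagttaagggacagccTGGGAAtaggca

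In replicate 1 the strongest regions of Cpt1a were far from its promoter, whereas in replicate 2 they had the same folds as promoter regions. A region in intron 14 (chr19:3376755-3377846) had folds of 12.2 in replicate 1 and 8.03 in replicate 2, with −log10 q of 35.9 and 13.5 and summits at 53751 and 53765 bp from the TSS. Its fold in replicate 1 was the highest of all member regions. The next region, in intron 15 (chr19:3378225-3379569), had folds of 10.1 and 7.36. A weaker region lay in intron 5 (chr19:3359980-3360499), with folds of 6.85 and 5.02. These regions of introns 5, 14 and 15 lie in the Cpt1a body, but their nearest protein-coding TSS is that of the neighbouring gene Tesmin, which encodes a testis-expressed metallothionein-like protein, at 28618 bp, 11557 bp and 9960 bp from the midpoints of the regions in introns 5, 14 and 15. The summits of both libraries were 14 to 44 bp apart in these 3 regions and 170 to 1037 bp apart in the 3 promoter regions. The sequence at the intron 14 summit (chr19:3376936-3377136) is shown as the site of the highest fold, and its single match, TTGCNNAA of the C/EBP family, begins at base 145.
Cpt1a intron 14: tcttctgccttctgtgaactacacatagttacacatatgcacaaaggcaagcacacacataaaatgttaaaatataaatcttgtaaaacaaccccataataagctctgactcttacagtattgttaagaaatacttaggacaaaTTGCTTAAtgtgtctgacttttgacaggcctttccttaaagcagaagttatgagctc

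**Figure D2:**
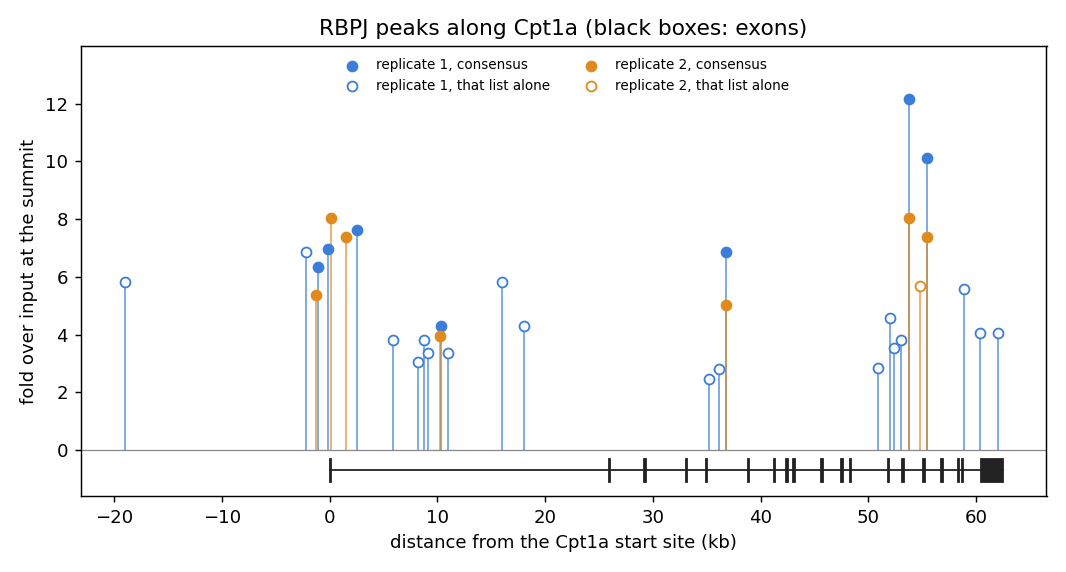
Fold over input (vertical axis) of RBPJ peaks along Cpt1a by distance from its start site in kb. Black boxes are exons, filled points belong to consensus regions and open points to 1 list alone. The highest points, 12.2 and 10.1 in replicate 1, lie in introns 14 and 15, with 8.03 and 7.36 in replicate 2 at the same places.

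The remaining consensus region of Cpt1a, in intron 1 (chr19:3333410-3333666), was its weakest, with folds of 4.31 and 3.94 and summits 10327 and 10289 bp from the TSS. Beside the consensus, replicate 1 listed 18 further regions for Cpt1a and replicate 2 listed 1. That peak of replicate 2, between the intron 14 and intron 15 regions, had a fold of 5.69. Of the replicate 1 peaks outside the consensus, the highest lay 2217 bp upstream of the TSS with a fold of 6.85.

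Cpt2, the inner membrane partner of Cpt1a, had 4 consensus regions packed around its start. The gene lies on the minus strand at chr4:107903981-107923610. The region over the TSS (chr4:107923349-107923798) had folds of 5.07 and 7.03, with summits 44 and 49 bp upstream, inside the printed window and close to its GC boxes. It was the 1 region of Cpt2 with the higher fold in replicate 2. The other 3 regions lay in intron 1, and their folds were 4.82 and 4.29, 6.60 and 3.35, and 4.91 and 4.02 in replicates 1 and 2. The last of them (chr4:107921671-107922266) was outside the 1 kb limit. No Cpt2 peak was found in 1 list alone, which held for no other member.

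Acadm, the medium-chain dehydrogenase, had 1 consensus region, and it lay over the start. The gene lies on the minus strand at chr3:153922357-153944632, and the region (chr3:153944395-153944707) had folds of 6.85 and 4.35 and −log10 q of 13.6 and 3.79. The summits were 25 bp upstream and 133 bp downstream of the TSS, and the region held 114 of the 300 bases of the printed window. Replicate 1 had 3 further peaks in intron 1, with folds of 3.55 to 5.84. None of the 11 motifs matched within 100 bp of the replicate 1 summit.

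Hadha had 4 consensus regions, of which 3 also lay at the promoter of Hadhb. Hadhb encodes the other subunit of the trifunctional protein, and its TSS lies 86 bp from that of Hadha on the opposite strand. Hadha itself lies on the minus strand at chr5:30118304-30155162. The region over the shared start (chr5:30154869-30155403) had folds of 7.87 and 7.70, with summits 127 and 129 bp inside Hadha. The adjoining region in intron 1 (chr5:30154022-30154593) had folds of 6.60 and 8.03, and the region on the Hadhb side (chr5:30155825-30156516) had folds of 7.10 and 5.02. The fourth region, 2666 bp into the gene by the replicate 1 summit, had folds of 5.84 and 4.05. Which of the 2 genes the shared regions belong to cannot be told apart from these lists. None of the 4 windows around the summits of the higher-fold library matched any of the 11 motifs, while at the lower-fold summits Hadha had a C/EBP match.

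Acadl, the long-chain dehydrogenase, differed from the other oxidation genes in having no consensus region. It lies on the minus strand at chr1:66830839-66863277, and replicate 2 had no peak assigned to it. Replicate 1 had 5 peaks, of which 2 were at the promoter. Their folds were 6.09 and 5.33, with summits 639 bp upstream and 464 bp downstream of the TSS. The closest consensus region was 45986 bp from the TSS.

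**Figure D3:**
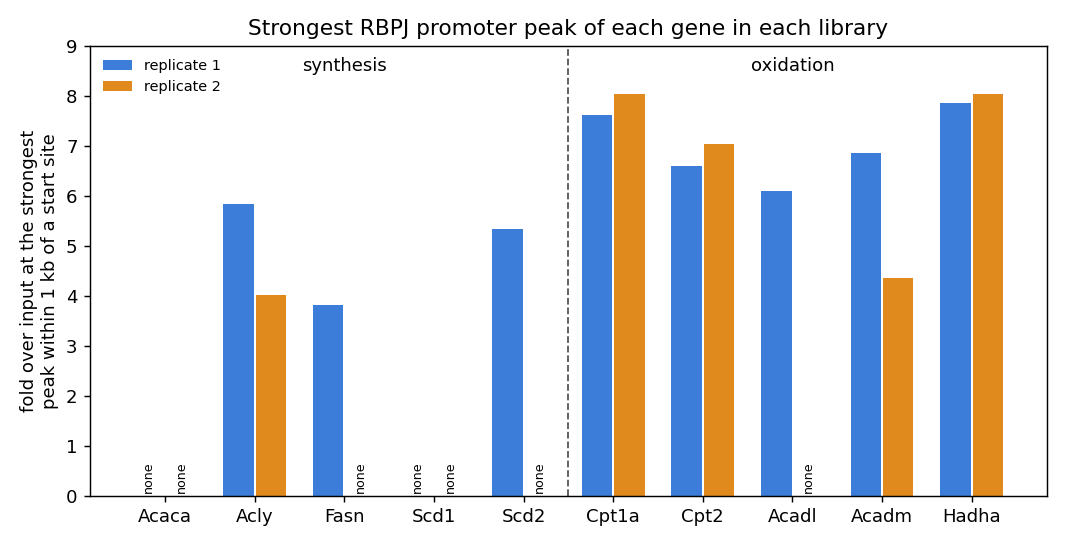
Highest fold over input in any region that overlaps the 1 kb either side of a start site, for each gene (horizontal axis). Bars are replicate 1 (blue) and replicate 2 (orange), with none where the list has no peak in such a region. The Cpt1a value of 7.61 in replicate 1 has its summit 2522 bp from the start site, outside that limit. In both libraries the oxidation genes with a peak stand above the synthesis genes with one, by 6.09 against 5.84 at the closest point in replicate 1 and 4.35 against 4.02 in replicate 2.

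Set side by side, the oxidation genes had peaks at more promoters than the synthesis genes in each library. In replicate 1 the counts were 5 of 5 oxidation and 3 of 5 synthesis genes, against 46.1% of all protein-coding genes. In replicate 2 they were 4 of 5 and 1 of 5, against 37.7% of all genes. The highest fold in any region at a promoter was 6.09 to 7.87 for the oxidation genes in replicate 1. For the synthesis genes with a peak there it was 3.81 to 5.84. In replicate 2 it was 4.35 to 8.03 for the oxidation genes and 4.02 for Acly. The ranges did not overlap, but the margin was small. Folds came in fixed steps, being whole multiples of 0.254 for 70.3% of replicate 1 peaks and of 0.335 for 78.0% of replicate 2 peaks, to within 0.01 of a step. The weakest oxidation and the strongest synthesis promoter peak were 1 step apart in each library.

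Over all assignments, 6 of the 10 genes had a consensus region, namely 4 oxidation genes and, of the synthesis genes, Acly and Scd1. The share over all protein-coding genes was 45.0%. By gene body the counts were 4 oxidation genes and 1 synthesis gene, against 37.3% of all genes. By nearest TSS they were 4 and 2, against 40.5%. The oxidation genes held 16 consensus regions and the synthesis genes 3. Cpt1a and the Hadha locus alone accounted for 11 of the 16.

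The bodies of the synthesis genes are longer in sum, at 368946 bp against 174604 bp. Per 100 kb of gene body there were 8.59 consensus regions in the oxidation genes and 0.542 in the synthesis genes, against 1.78 over all protein-coding genes. Promoter regions that reach into a gene count as body regions, so these values partly repeat the promoter counts. Leaving out Acaca raised the synthesis value to 2.06, and leaving out Acly brought it to 0. For the oxidation genes, leaving out any one gene gave 7.10 to 10.6. The order of the 2 groups was thus kept whichever single gene was left out, while the place of the synthesis genes relative to all genes rested on Acaca.

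Most peaks at these genes were not shared between the libraries. Of the regions assigned to the 10 genes, 19 were consensus, 51 were of replicate 1 alone and 7 of replicate 2 alone. The consensus made up 27.1% of the member regions of replicate 1 and 73.1% of those of replicate 2. Over the genome these shares were 24.5% and 61.5%. The synthesis genes had 17 regions of replicate 1 alone and 6 of replicate 2 alone, beside 3 shared. The oxidation genes had 34 and 1, beside 16 shared.

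In strength the member promoters ran from below the lower quartile to above the upper quartile of bound promoters, without reaching either end. The lower fold of the libraries at the strongest promoter region was 7.70 for Hadha, 7.36 for Cpt1a, 5.07 for Cpt2, 4.35 for Acadm and 4.02 for Acly. Among the 7324 protein-coding genes with a consensus region at a promoter, the median was 5.58 and the quartiles were 4.57 and 7.03. The percent of these genes at or below each value was 82.8 for Hadha, 79.7 for Cpt1a, 41.4 for Cpt2, 24.5 for Acadm and 15.2 for Acly. Only Hadha and Cpt1a were above the upper quartile, and Acly and Acadm were below the lower one. The Cpt1a value came from its intron 1 region, whose strongest summits lay 2522 and 1485 bp downstream of the TSS. At the Cpt1a region over the TSS the lower fold was 6.98, which is below the upper quartile. At or above the limit of the strongest 10% of peaks by −log10 q were 4 of 70 member regions in replicate 1, all at Cpt1a and Hadha. In replicate 2 there were 7 of 26, at Cpt1a, Cpt2 and Hadha, and Cpt2 stood exactly at the limit of 10.6. Each region was taken with its strongest peak, while the limit was set over single peaks. The share over all regions was not counted, so these counts cannot be set against 10%. No peak at a synthesis gene reached the limit of its list.

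**Figure D4:**
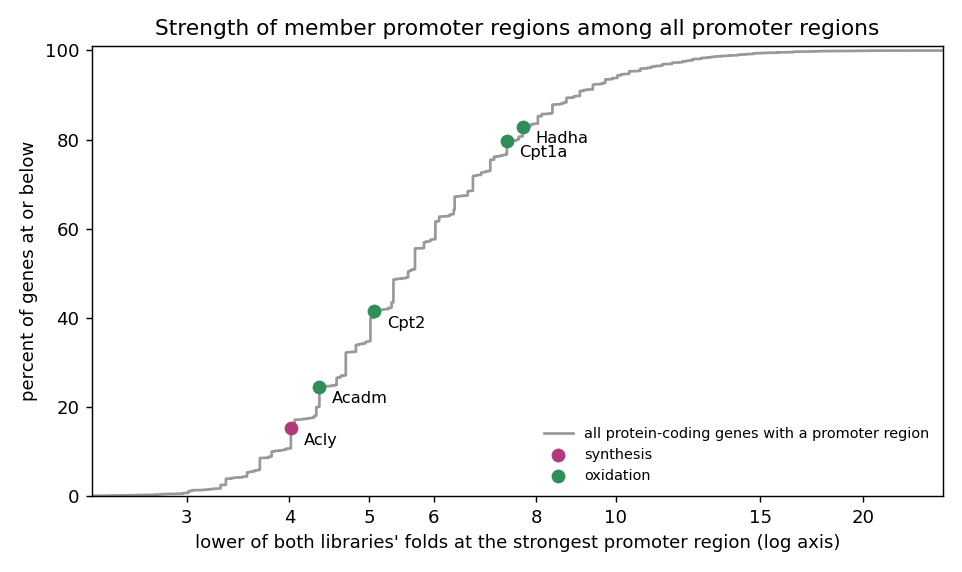
Percent of genes (vertical axis) with a lower fold at or below the value on the horizontal log axis, for the 7324 protein-coding genes with a consensus region at a promoter (grey line), with Acly (purple) and 4 oxidation genes (green) marked. Acly, Acadm and Cpt2 lie below the median of 5.58, and Cpt1a and Hadha lie above it.

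When both lists were limited to −log10 q of at least 5, promoter regions remained at Cpt1a, Cpt2 and Hadha and were lost at Acly and Acadm. The counts became 3 of 5 oxidation genes and 0 of 5 synthesis genes, against 24.0% of all genes. The intronic Acly region passed this limit.

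Motif counts over the 19 member regions were small, and no difference from all consensus regions is read from them. TGGGAA was found within 100 bp of the summit of the higher-fold library in 2 of 19 member regions, at Acly and Cpt1a, against 18.8% of all consensus regions. GTGGGAA was found in 1, at Acly, against 4.64%. At the summit of the lower-fold library TGGGAA was found in 1 member region, at Cpt2, and not at Acly or Cpt1a. GC boxes were found in 4 of 19 against 14.3%, CCAAT in 5 of 19 against 27.0%, and AGGTCA in 4 of 19 against 13.3%. TTGCNNAA was found in 2, both at Cpt1a, against 14.3%. The E box, the PU.1 motif and the cAMP response element were found in none, against 4.88%, 6.53% and 0.998%. The GC content of the 19 windows ranged from 31.3% to 67.7% with a median of 45.3%, and the median of all consensus regions was 46.8%.

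Other genes of both routes were taken from lists that do not contain the 10 members. Of 20 further oxidation genes, 11 had a consensus region at a promoter, and of 14 further synthesis genes, 6 had one, against the 33.7% of all genes given above. Of the oxidation genes, Hadhb had a lower fold of 7.70 from the region shared with Hadha. Echs1, the short-chain enoyl-CoA hydratase, had 6.36. No consensus region was assigned to Cpt1b and Cpt1c, the muscle and brain forms of the transferase, or to the carnitine carrier Slc25a20. Of the synthesis genes, the elongase Elovl5 had 10.4, Acss2, which makes acetyl-CoA from acetate, had 6.36, and Oxsm, of mitochondrial fatty acid synthesis, had 5.67. None was assigned to Acacb, Me1 or Fads2. With the peaks of the replicate 1 list, shared or not, the counts were 16 of 20 and 8 of 14, against 46.1% of all genes. With those of the replicate 2 list they were 14 of 20 and 7 of 14, against 37.7%. For the consensus at −log10 q of at least 5 the counts were 6 of 20 and 3 of 14, against 24.0% of all genes.

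Among 16 regulators of lipid metabolism, 9 had a consensus region at a promoter, against 33.7% of all genes. With the peaks of the replicate 1 list, shared or not, the count was 12, against 46.1% of all genes. With those of the replicate 2 list it was 11, against 37.7%. For the consensus at −log10 q of at least 5 it was 6, against 24.0% of all genes. The 9 genes included both SREBP genes, Srebf1 and Srebf2, at lower folds of 4.35 and 4.57, and Insig1, which retains SREBP in the endoplasmic reticulum, at 6.09. The liver X receptor gene Nr1h2 had 7.36, and Pparg, the nuclear receptor of AM lipid handling, had 7.26. No consensus region was assigned to Scap, the escort of SREBP, or to Mlxipl and Mlx, which encode the carbohydrate response factor and its partner. The Srebf1 region was chosen for mention after its values had been seen, as was that of Srebf2.

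**Figure D5:**
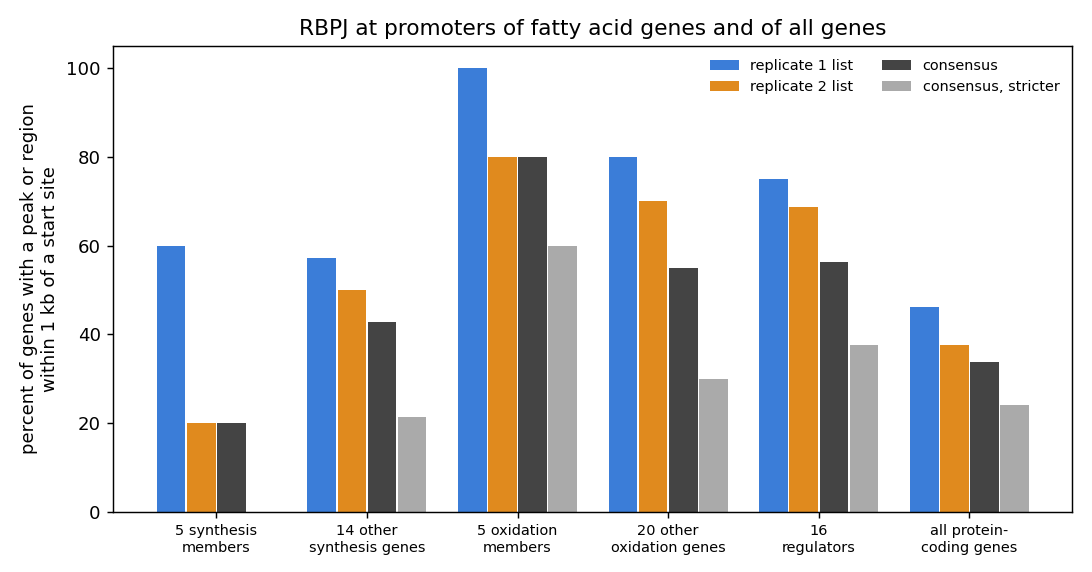
Percent of genes (vertical axis) with a peak or consensus region within 1 kb of a start site, for the 5 synthesis and 5 oxidation genes, 14 and 20 further genes of both routes, 16 regulators and all protein-coding genes. Bars are the replicate 1 list, the replicate 2 list, the consensus, and the consensus at −log10 q of at least 5, which for all genes are 46.1%, 37.7%, 33.7% and 24.0%.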

How the data were processed

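RBPJ was profiled by HT-ChIPmentation in sorted AMs, with 2 RBPJ and 2 input libraries. Per the study's methods and the submitters' processing notes, reads were handled with bcl2fastq (version 2.20.0.422), CASAVA and Cutadapt, aligned to mm10 with Bowtie2, filtered with SAMtools, and the authors called peaks library by library with MACS3, using input as control and a q limit of 0.05. The inputs entered only through these calls. The deposited lists give each peak's fold over background, −log10 p, −log10 q and summit, as the authors' caller wrote them. The −log10 p was not used. Folds were not rescaled between libraries. The number of reads behind each peak is not given, so the number of libraries limits the precision.

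All peaks ended within the chromosome lengths of GRCm38 (mm10), and GENCODE M21 gene models were used with coordinates counted from 1. Peaks of both lists overlapping by at least 1 bp were merged. Nearest TSSs were measured from region midpoints. Sequence came from RefSeq's GRCm38.p6 and its promoter table. Python 3.11.15, numpy 2.4.6, pandas 2.3.3, pysam 0.24.0, samtools 1.23.1 and matplotlib 3.10.9 were used, and the steps were tested on simulated data. The members, gene lists and motifs were chosen with earlier results of these data known. All 10 members were named, and from each further list up to 3 genes with the highest lower fold at a promoter and up to 3 without a consensus region, in list order. One gene that this rule selects is not reported here. Alternatives were stricter thresholds, other promoter widths, transcripts and summit rules, a shortened replicate 1 list, and each library alone. One further alternative was chosen after seeing the data.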

Additional observations from a re-analysis of the deposited data

How the results depend on the processing

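Of 56 values under alternatives for 7 results, 39 stayed within 1.5 times the value reported. Comprehensive transcripts, promoters of 500 bp or 3 kb, other rules for the nearest TSS, and replicate 1 cut to its 47224 strongest peaks gave no larger change. At −log10 q of at least 5 in both lists, genes with a promoter region numbered 3, synthesis genes 0, synthesis regions 1 and oxidation regions 10. With summits required to lie within 100 bp, genes with a promoter region numbered 3 (Acly, Cpt2 and Hadha), oxidation genes 2, synthesis regions 1 and oxidation regions 10. Both rules admit fewer peaks by construction. With peaks up to 100 bp apart counted as shared, synthesis regions numbered 5. Using each library alone gave 5 to 8 genes with a promoter peak, 1 to 3 synthesis and 4 to 5 oxidation genes among them. By any assignment each library alone gave 8 to 10 genes, with 9 to 20 regions at synthesis and 17 to 50 at oxidation genes, the higher values in replicate 1. Member regions with TGGGAA numbered 1 within 50 bp of the summit (Acly), and 1 at the summit of the lower-fold library (Cpt2), where neither Acly nor Cpt1a had it. No paired analysis was possible because the inputs had no list of their own here and the results come from no test. With 2 libraries and no read depth, a gene without a consensus region is one at which no shared peak was called, not one shown to lack RBPJ.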
